A study of Homo sapiens with 6 samples.

Results

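IFI6, OAS2, IFI44 and CXCL10 are interferon-stimulated genes, and they were chosen by symbol as 4 of the 753 genes in the authors' deposited table for AsPC-1, an established human pancreatic cancer cell line. The table compares 3 control libraries, from cells given a control lentivirus (labelled TMPRSS4 NC), with 3 libraries from cells given an shTMPRSS4 lentivirus (labelled TMPRSS4-Knockdown). Its short hairpin RNA targets TMPRSS4, a serine protease of the cell membrane. All 6 libraries are lentivirus-treated AsPC-1 cells, so neither group is untreated. The labels give neither a hairpin sequence, a clone nor a time after transduction, and do not say whether replicates were separate cultures, so p-values measure only the spread between these samples, which may be technical.

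Interferons are secreted proteins that signal through cell surface receptors and their kinases to transcription factors in the nucleus. Type I and type III interferons act mainly through the interferon-stimulated response element (ISRE), and interferon gamma through the gamma-activated site (GAS). In epithelial cancer cells the same genes can be expressed at a low constant level, and some, such as CXCL10, are also targets of NF-kB. IFI6 encodes a small mitochondrial membrane protein described as anti-apoptotic. OAS2 encodes an enzyme that senses double-stranded RNA and makes the oligoadenylates that activate RNase L. IFI44 encodes a cytoplasmic interferon-induced protein, and CXCL10 a secreted chemokine that attracts T cells and natural killer cells through the receptor CXCR3.

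The sequences before the starts of 3 members are shown because they hold the letters of elements through which interferon and NF-kB are known to act. Each runs 5′ to 3′ on the gene's strand over the 250 bases before the RefSeq start (GRCh38.p14), at chr1:27672193-27672442 (minus strand) for IFI6, chr1:78649539-78649788 (plus strand, the first of 2 RefSeq starts) for IFI44 and chr4:76023498-76023747 (minus strand) for CXCL10. Of the 4 members, 3 had an entry in the RefSeq promoter table, and OAS2 had none. Capitals mark matches to the ISRE letters (GAAA, any 2 bases, then GAAA) on either strand and, in CXCL10, also matches to the NF-kB consensus.
IFI6: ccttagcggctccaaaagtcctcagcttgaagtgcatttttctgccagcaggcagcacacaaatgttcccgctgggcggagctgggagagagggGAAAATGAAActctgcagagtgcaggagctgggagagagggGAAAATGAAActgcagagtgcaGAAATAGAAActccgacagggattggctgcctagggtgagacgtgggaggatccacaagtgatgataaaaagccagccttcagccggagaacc
IFI44: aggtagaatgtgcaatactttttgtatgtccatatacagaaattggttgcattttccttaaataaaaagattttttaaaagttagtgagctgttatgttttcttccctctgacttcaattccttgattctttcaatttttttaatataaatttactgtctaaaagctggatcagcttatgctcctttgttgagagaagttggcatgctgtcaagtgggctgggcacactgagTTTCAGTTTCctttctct
CXCL10: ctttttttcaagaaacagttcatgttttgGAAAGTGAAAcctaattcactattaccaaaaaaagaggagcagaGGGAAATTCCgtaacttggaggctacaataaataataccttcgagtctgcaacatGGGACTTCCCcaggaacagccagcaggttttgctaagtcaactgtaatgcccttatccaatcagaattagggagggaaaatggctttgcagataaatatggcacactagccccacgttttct

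IFI6 held 3 ISRE matches, beginning 156, 115 and 93 bases before the start, and 2 of them had the same letters, GAAAATGAAA. IFI44 held 1, which lies on the other strand and begins 18 bases before the start shown and 60 bases before the second RefSeq start. The 30 bases that begin 20 bases after the start are in 1 of 9 GENCODE transcripts for the first start and in 5 of 9 for the second. CXCL10 held 1 ISRE match, beginning 221 bases before the start, and 2 matches to the NF-kB consensus, beginning 177 and 122 bases before it. None of the 3 windows held the GAS letters (TTC, any 3 bases, then GAA) on either strand, and no ISRE match overlapped an NF-kB match. Over all 35116 RefSeq windows of this length, 3.02% held an ISRE match, 5.21% an NF-kB match and 6.57% a GAS match. Over the 810 windows of genes in the table the ISRE share was 3.33%. IFI44 and CXCL10, each with 1 ISRE match, were lower in the shTMPRSS4 libraries, and IFI6, with 3 matches, was higher at recovered depth and at -0.01 on the log2 scale under TMM scaling. A match describes the letters and was not measured as a bound site, and a relation of matches to direction was not tested.

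**Figure D1:**
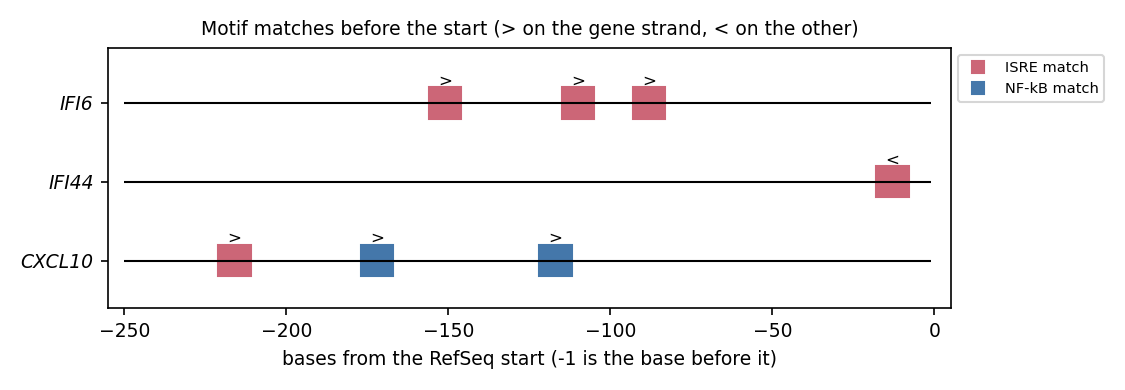
Positions of motif matches in the 250 bases before the RefSeq start of IFI6, IFI44 (the first of its 2 starts) and CXCL10, with distance from the start in bases on the horizontal axis and 1 line per gene. Red boxes are ISRE matches and blue boxes NF-kB consensus matches, and IFI6 has 3 red boxes, IFI44 has 1 and CXCL10 has 1 red and 2 blue boxes.

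The table is a selection on the outcome. Every gene of the authors' deposited table differed by at least 1 on the log2 scale and had a false discovery rate (FDR) no higher than 0.0490, so the members were bound to differ and tests on these libraries describe the difference without independent support. The unit of level is FPKM, in which the authors divided fragments by gene length and by depth. Depth, recovered from the ratio of count to FPKM, ran from 30200000 to 57200000 reads in control and from 46800000 to 53300000 in shTMPRSS4 libraries. The library of shTMPRSS4 replicate 1 stood apart from replicates 2 and 3, with a mean chi-square per gene of 48.1 and 45.0 against 11.8 between those replicates, while the medians were 1.86, 1.86 and 1.67. Without it the log2 fold changes of IFI6, OAS2, IFI44 and CXCL10 at recovered depth were 1.14, 1.23, -1.89 and -3.47. All 4 passed (edgeR adjusted p = 8.77e-05, 9.08e-04, 0.0135 and 0.0115), in a fit where 697 of the 753 listed genes passed. TMPRSS4 itself was not analysed here, so the labels alone name the groups. Of 11 epithelial and pancreatic cancer markers CEACAM6 was in the table, at 12.3 ± 0.870 FPKM in control and 3.80 ± 0.125 in shTMPRSS4 libraries (SD, n = 3 per group). Of 8 fibroblast, 6 endothelial and 9 acinar or endocrine markers, 1, 1 and 2 were in the table. Fibroblast FAP had 0.513 ± 0.0987 and 1.80 ± 0.218 FPKM in control and shTMPRSS4 libraries, acinar CELA3A 0.293 ± 0.0416 and 3.59 ± 0.650, and endothelial PECAM1 0.523 ± 0.140 and 0.197 ± 0.0451, while the endocrine gene GCG had 0 and 24 reads. Of 14 immune cell and 5 plasmacytoid dendritic cell markers 0 were in the table, and the part of other cells in the levels below was not tested. In bulk RNA, fewer cells with a transcript and less transcript per cell cannot be told apart.

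The 4 members split by direction, in a table where 73.7% of genes were higher and 26.3% lower. The higher pair, IFI6 and OAS2, was the more abundant one, and its change was close to the smallest that the authors' list admits. IFI44 and CXCL10 were lower, were at low levels (19.8% and 14.5% of listed genes had a lower mean FPKM), and had large folds that rest on few reads. The libraries of the groups did not overlap for 4 of 4 members, where 97.7% of all 753 genes in the table did not overlap. All 4 passed edgeR's quasi-likelihood test at a Benjamini-Hochberg adjusted p under 0.05, where 99.1% of the 705 tested genes passed. Of the genes tested, 73.3% passed on the higher and 25.8% on the lower side. With scale factors from the listed genes alone, IFI6 and OAS2 were near 0 and did not pass (log2 fold changes of -0.01 for both under TMM and of 0.02 and 0.03 under DESeq2), and the passing genes were 167 higher and 190 lower under TMM and 181 and 187 under DESeq2. These shares follow from the selection, and nothing is read from the members' count against them. Scale factors from the listed genes alone centre the selected table by construction. They therefore place IFI6 and OAS2 near the middle of the listed genes and cannot show whether the pair rose. The authors' deposited log2 fold changes had a median of -0.75 over the 4 members and 1.33 over all listed genes.

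**Figure D2:**
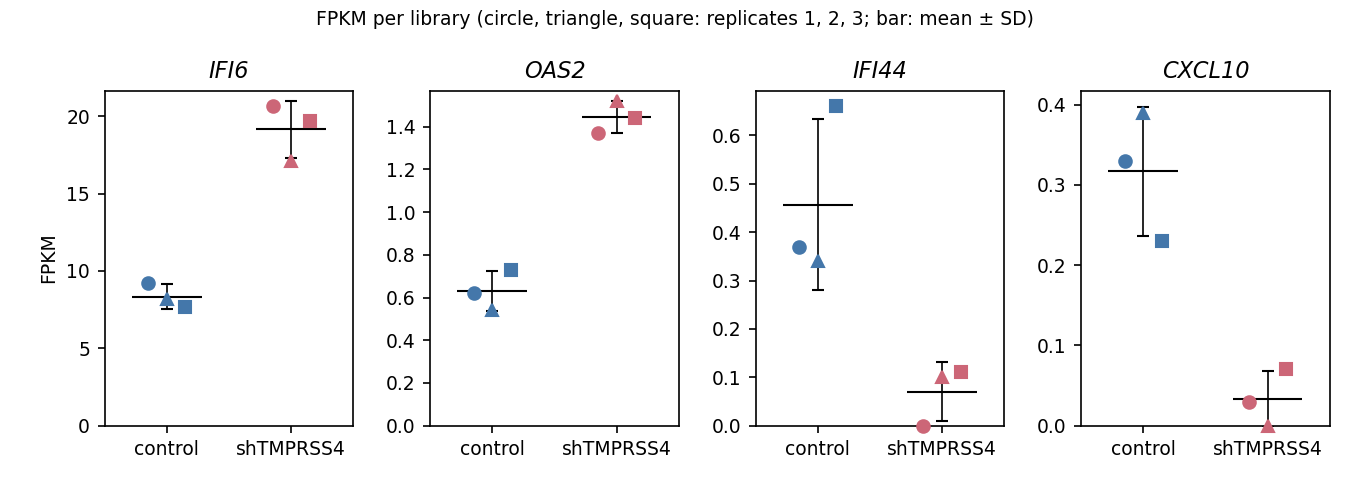
FPKM of IFI6, OAS2, IFI44 and CXCL10 in each of the 6 libraries, 1 panel per gene, each with its own vertical axis from 0. Points are libraries (circle, triangle and square for replicates 1, 2 and 3), long bars the group mean and error bars the SD; shTMPRSS4 points lie above all control points for IFI6 and OAS2, which is at recovered depth (-0.01 for both under TMM scaling), and below them for IFI44 and CXCL10.

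IFI6 (ENSG00000126709, GRCh38 chromosome 1, 27666061 to 27672218, minus strand) was the most abundant member. Its level was 9.20, 8.19 and 7.65 FPKM in control replicates 1, 2 and 3, from 437, 253 and 192 reads. In shTMPRSS4 replicates 1, 2 and 3 it was 20.68, 17.11 and 19.68 FPKM, from 916, 716 and 764 reads. Every shTMPRSS4 library was thus above every control library, and the lowest of them, replicate 2, was 17.1 FPKM against a highest control of 9.20. The mean went from 8.35 ± 0.787 to 19.2 ± 1.84 FPKM (SD, n = 3 per group), and the coefficient of variation was 9.43% and 9.61%. At recovered depth IFI6 rose by a log2 fold change of 1.20 ± 0.11 (SE; edgeR adjusted p = 4.08e-06). Under TMM scaling over the listed genes, which centres the selected table, IFI6 was at -0.01. Reads summed per depth gave a ratio of 2.25, with an exact 95% interval of 2.08 to 2.43 that covers counting error only.

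OAS2 (ENSG00000111335, chromosome 12, 112978395 to 113011723, plus strand) had a much lower level and the same size of change. It had 0.62, 0.54 and 0.73 FPKM in control replicates 1, 2 and 3, from 101, 57 and 63 reads. It had 1.37, 1.52 and 1.44 FPKM in shTMPRSS4 replicates 1, 2 and 3, from 208, 218 and 191 reads. The groups were again apart, with control replicate 3 the highest control. The mean went from 0.630 ± 0.0954 to 1.44 ± 0.0751 FPKM. At recovered depth OAS2 rose by a log2 fold change of 1.20 ± 0.13 (edgeR adjusted p = 1.50e-04). Under TMM scaling, which centres the selected table, OAS2 was at -0.01. The depth-scaled ratio of reads was 2.31, with a counting interval of 1.98 to 2.71.

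The ratio of IFI6 to OAS2 within a library does not depend on how libraries are scaled. On the log2 scale of depth-scaled counts plus 0.5 it averaged 1.95 in control and 1.95 in shTMPRSS4 libraries, a difference of 0.00 ± 0.21 (SE), and the libraries overlapped. Among the 555 genes that the authors' deposited table lists as higher, its fold ranked IFI6 442nd and OAS2 444th, where the median log2 fold change was 1.62. Both therefore lie close to the smallest listed value of 1.

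IFI44 (ENSG00000137965, chromosome 1, 78649796 to 78664078, plus strand) was read at low counts throughout. Its level was 0.37, 0.34 and 0.66 FPKM in control replicates 1, 2 and 3, from 20, 12 and 19 reads. The shTMPRSS4 replicates 1, 2 and 3 had 0.00, 0.10 and 0.11 FPKM, from 0, 5 and 5 reads. Control replicate 3 stood above the other controls, and the highest shTMPRSS4 library was below the lowest control. A count of 0 in shTMPRSS4 replicate 1 allows a level of up to 0.0590 FPKM (3 counts, counting error only). The mean went from 0.457 ± 0.177 to 0.0700 ± 0.0608 FPKM, and IFI44 fell by 3.02 ± 1.16 on the log2 scale (edgeR adjusted p = 0.00423). The fall was 1.89 without shTMPRSS4 replicate 1, the library at 0. Summed over each group there were 51 control and 10 shTMPRSS4 reads, a depth-scaled ratio of 6.16 with a counting interval of 3.09 to 13.6.

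CXCL10 (ENSG00000169245, chromosome 4, 76021117 to 76023497, minus strand) had the lowest mean level of the 4. Its level was 0.33, 0.39 and 0.23 FPKM in control replicates 1, 2 and 3, from 22, 17 and 8 reads. The shTMPRSS4 replicates 1, 2 and 3 had 0.03, 0.00 and 0.07 FPKM, from 2, 0 and 4 reads. Control replicate 3, which was the highest control for IFI44 and OAS2, was the lowest for CXCL10 and IFI6. The count of 0 in shTMPRSS4 replicate 2 allows a level of up to 0.0508 FPKM. The mean went from 0.317 ± 0.0808 to 0.0333 ± 0.0351 FPKM, and CXCL10 fell by 3.31 ± 0.95 on the log2 scale (edgeR adjusted p = 0.00145). It fell by 2.43 without shTMPRSS4 replicate 2. Its 47 control and 6 shTMPRSS4 reads gave a depth-scaled ratio of 9.46, with a counting interval of 4.04 to 27.1.

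For these 2 genes the size of the fold is therefore known only within wide limits. The direction was the same with each library left out in turn, as it must be where the groups do not overlap. With 3 against 3 libraries an exact two-sided permutation test cannot give less than p = 0.1, which each of the 4 members reached. In the authors' deposited table the folds of IFI44 and CXCL10 ranked 19th and 12th of 198 lower genes, at log2 fold changes of -2.71 and -3.25 against a median of -1.37. In the same deposited table their FDR values were 0.0183 and 0.00753, which ranked 656th and 603rd of 753, while IFI6 at an FDR of 1.46e-14 ranked 199th and OAS2 at 7.63e-06 ranked 366th.

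**Figure D3:**
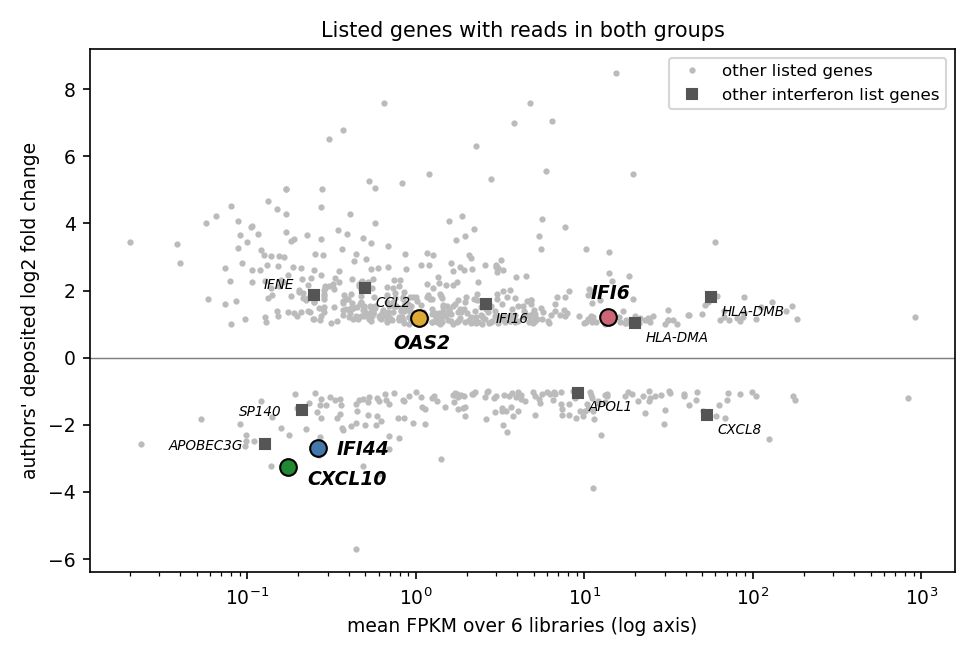
The authors' deposited log2 fold change (vertical axis) against mean FPKM over 6 libraries (horizontal log axis) for the 696 listed genes with reads in both groups; 57 genes at 0 in a group are left out. Large circles are the 4 members and dark squares 9 other interferon list genes; IFI6 and OAS2, which were near 0 (-0.01) under TMM scaling, lie at the inner edge of the upper cloud, and IFI44 and CXCL10 at the low-level, large-fold end of the lower one.

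Within a library the 2 pairs parted whatever the scaling. For each CXCL10 read there were 19.9, 14.9 and 24.0 IFI6 reads in control replicates 1, 2 and 3. In shTMPRSS4 replicates 1 and 3 there were 458 and 191, and replicate 2 had 716 IFI6 reads and 0 of CXCL10. The log2 ratio of IFI6 to CXCL10 was higher in shTMPRSS4 than in control libraries by 4.51 ± 0.87 (SE), and that of IFI6 to IFI44 by 4.21 ± 1.23. For each IFI44 read there were 5.05, 4.75 and 3.32 OAS2 reads in the controls. There were 43.6 and 38.2 in shTMPRSS4 replicates 2 and 3, and replicate 1 had 208 OAS2 reads and 0 of IFI44. The log2 ratio of OAS2 to IFI44 was higher by 4.21 ± 1.10 and that of OAS2 to CXCL10 by 4.51 ± 1.01. For these 4 ratios the control and shTMPRSS4 libraries did not overlap. That follows from the groups of each member lying apart in opposite directions, and adds no separate support. The log2 ratio of IFI44 to CXCL10 differed by 0.29 ± 1.65, and its libraries overlapped. These ratios show unequal change and not which gene of a pair changed.

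By mean FPKM the order was IFI6, OAS2, IFI44 and CXCL10 in both groups, with different gaps. In the controls IFI6 was 13.2-fold above OAS2 by mean FPKM, and the next neighbours, OAS2 and IFI44 and then IFI44 and CXCL10, overlapped in their library values. In the shTMPRSS4 libraries IFI6 was 13.3-fold above OAS2, and OAS2 was 20.6-fold above IFI44 with no overlap. IFI44 and CXCL10 overlapped there too. IFI6 made up 82.5% to 87.5% of the summed FPKM of the 4 genes in controls and 91.4% to 93.7% in shTMPRSS4 libraries. A level per length depends on the gene length the authors used, which count and FPKM give as 830 bases for IFI6, 2844 for OAS2, 954 for IFI44 and 1172 for CXCL10. In GENCODE 29 the longest transcripts are 841, 4734, 1687 and 1176 bases, so the levels of OAS2 and IFI44 would be lower per length of the longest transcript.

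Annotated transcripts of the members shared few stretches of sequence with those of other genes. Of their 31-base stretches, read on the transcript strand only, 0.453% in IFI6, 0.299% in OAS2, 0% in IFI44 and 0% in CXCL10 also occur in transcripts of other genes. OAS2 and CXCL10 lie within the span of a gene on the other strand (AC004551.1 and ART3), and IFI6 partly overlaps the span of one (AL445490.1), but 0 bases of their exons overlap an exon of it in GENCODE 29. None of these 3 partners was in the table. Reads from unspliced transcripts of the partners were not examined, and the protocols describe no step that marks the strand.

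Of 208 other genes in lists of ligands, receptors, signal transducers, sensors, interferon targets and CXC chemokines, 11 were in the table. Of these, 7 were higher and 4 lower, where 73.7% of all listed genes were higher. Of the 9 that edgeR tested, 5 passed higher and 4 lower at recovered depth, where 99.1% of all tested genes passed. Nothing is read from these counts. Over the listed genes alone, TMM left 1 higher and 4 lower, and DESeq2 size factors 2 higher and 4 lower. The median of their authors' deposited log2 fold changes was 1.60, against 1.33 over all listed genes. Genes outside the table were not analysed here, and their absence from it says nothing of their level.

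Among ligands, 1 of 22 was in the table. IFNE, an epithelial type I interferon, had 0.18, 0.07 and 0.07 FPKM in the controls and 0.42, 0.39 and 0.36 in the shTMPRSS4 libraries. Its log2 fold change was 1.94 ± 0.42 (edgeR adjusted p = 0.00316), on 22 control and 87 shTMPRSS4 reads, and it did not pass under TMM scaling (log2 fold change 0.78, edgeR adjusted p = 0.381). No receptor of 7 and no signal transducer or feedback gene of 22 was in the table.

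Among sensors of nucleic acids 1 of 23 was in the table. IFI16, a DNA sensor, rose at recovered depth from 1.28 ± 0.237 to 3.90 ± 0.290 FPKM, by 1.61 ± 0.17 on the log2 scale (edgeR adjusted p = 1.06e-05), where TMM scaling gave 0.41 (edgeR adjusted p = 0.0863) and DESeq2 size factors 0.44 (adjusted p = 0.0400). IFI16 thus stood with IFI6 and OAS2 on the higher side at recovered depth.

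Of 88 targets of type I interferon 7 were in the table, 3 higher and 4 lower. Besides the members these were CCL2 on the higher side and APOL1, APOBEC3G and SP140 on the lower side. APOL1, an apolipoprotein, fell from 12.4 ± 0.896 to 6.01 ± 0.233 FPKM (log2 fold change -1.04 ± 0.07, edgeR adjusted p = 1.47e-06). APOBEC3G, a cytidine deaminase that restricts retroviruses, fell from 0.217 ± 0.0850 to 0.0367 ± 0.0115 FPKM on 52 and 11 reads. SP140, a nuclear body protein, fell from 0.313 ± 0.0635 to 0.107 ± 0.0681 FPKM. CCL2, a monocyte chemokine, rose at recovered depth from 0.193 ± 0.102 to 0.810 ± 0.217 FPKM on 16 and 89 reads, and did not pass under TMM scaling (log2 fold change 0.91, edgeR adjusted p = 0.151). Between 13.9% and 15.2% of the 31-base stretches of APOL1, APOBEC3G and SP140 are found in transcripts of other genes too, and their levels may include or lack such shared reads.

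Of 36 genes of the interferon gamma and antigen presentation list 5 were in the table, and CXCL10 was the one on the lower side. The other 4 belong to the MHC class II pathway. HLA-DMB rose by a log2 fold change of 1.81 ± 0.05, and by 0.60 under TMM and 0.64 under DESeq2 scaling. HLA-DMA rose by 1.04 ± 0.07 at recovered depth and was at -0.17 under TMM and -0.14 under DESeq2 scaling, where it did not pass. HLA-DRA and HLA-DRB1 had 0 control reads and 34 and 22 shTMPRSS4 reads, and were not tested. Of 17 CXC chemokines, CXCL8 was in the table beside CXCL10. CXCL8, a neutrophil attractant, had 88.95, 74.70 and 83.88 FPKM in the controls and 27.67, 24.58 and 23.05 FPKM in the shTMPRSS4 libraries. It fell by 1.72 ± 0.11 on the log2 scale. In the 250 bases before its RefSeq start neither the ISRE letters nor the NF-kB consensus were found by this search. The search takes only letters that match the full pattern, so a miss does not mean that a site is absent.

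Of the 10 genes of these lists with a promoter entry that are in the table, the ISRE letters were in IFI6, IFI44 and CXCL10. The members share annotation terms in the authors' deposited table as well. The term immune response held all 4 members among 27 listed genes, 15 higher and 12 lower. Defense response to virus held IFI6, OAS2 and CXCL10 among 8 genes, 5 higher and 3 lower. Response to virus held OAS2, IFI44 and CXCL10 among 7 genes, 3 higher and 4 lower. Innate immune response held IFI6 and OAS2 among 16 genes, 8 higher and 8 lower. Interferon-gamma-mediated signaling pathway held OAS2 among 5 genes, 4 higher and 1 lower. Over all listed genes 73.7% were higher. The term type I interferon signaling pathway held IFI6 and OAS2 and no other listed gene.

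Likeness to other genes was measured as Pearson's r of log2(FPKM + 0.1) over the 6 libraries among listed genes whose mean reached 0.5 FPKM, as a description in libraries that fall into 2 groups. The 3 genes most like IFI6 were ZNF362, PCDHB12 and SORBS2 (r from 0.996 to 0.999), and those most like OAS2 were CCT6B, APBA1 and GSTA1 (r from 0.995 to 0.998). Such values were common, since 61.1% of 504 genes had an r of at least 0.9 with IFI6 and 56.0% with OAS2. TNFRSF14, SLC22A3 and LHX1 were most like IFI44 (r from 0.961 to 0.993), and KLK7, CHST11 and ST3GAL5 most like CXCL10 (r from 0.988 to 0.999). An r of at least 0.9 was reached by 50 of 505 genes with IFI44 and by 101 with CXCL10. Between members, r was 0.94 for IFI6 and OAS2 and 0.81 for IFI44 and CXCL10.

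Control replicate 3 is the 1 library with the code L3 in its description, and the other 5 carry L4. Without it, the log2 fold changes were 1.14 for IFI6, 1.31 for OAS2, -2.76 for IFI44 and -3.57 for CXCL10, with edgeR adjusted p-values of 5.21e-05, 2.34e-04, 0.0256 and 0.00430. The choice of scaling moved the higher pair much further, as the plot by setting shows. With scale factors taken over the listed genes alone, 50.6% of tested genes passed under TMM and 52.2% under DESeq2. Such scaling moved the median log2 fold change by -1.2 and -1.16. IFI44 and CXCL10 passed on the lower side, as did 190 genes in all under TMM and 187 under DESeq2, against 182 at recovered depth. IFI6 and OAS2 did not pass. That contrast follows from the scaling and does not show that one pair is firmer than the other.

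**Figure D4:**
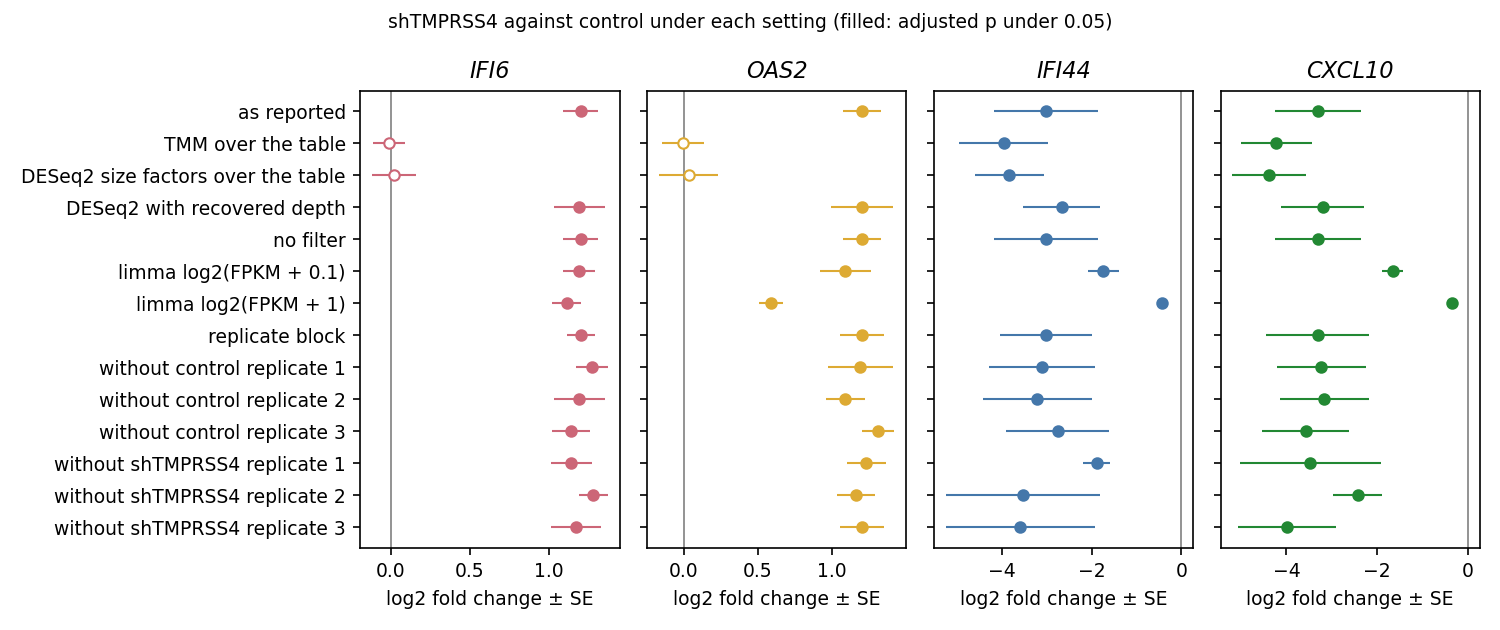
Log2 fold change of each member, shTMPRSS4 against control, with its SE (horizontal axis), under the setting reported and 13 alternatives (rows); filled points had an adjusted p under 0.05. IFI44 and CXCL10 are below 0 in every row, while IFI6 and OAS2 lie at or beside 0 under TMM (-0.01 for both) and DESeq2 size factors (0.02 and 0.03) taken over the listed genes.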

How the data were processed

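RNA of 6 AsPC-1 libraries was sequenced on an Illumina HiSeq after oligo(dT) selection, per the labels' protocols, which describe no step that marks the strand. The deposited table holds whole-number counts and FPKM (2 decimals), with the authors' mean FPKM, log2 fold change, p-value and FDR, per the file headers. Bowtie 0.12.2 is listed, with mouse builds (mm8, mm9), in the submitters' processing notes, although all 753 identifiers are human, so the reference is uncertain. For the counting tool and the authors' test, the sources used here give nothing. Coordinates are from GENCODE 29 (GRCh38), which all identifiers match.

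Library depth was recovered as the median ratio of count to FPKM over 159 genes with at least 200 counts, and set to reads with 12 genes of 1 transcript. Counts were tested with edgeR 4.0.16 (quasi-likelihood, filter on low counts, robust) over 705 genes, with Benjamini-Hochberg adjustment. Log2 fold changes and SE come from depth-scaled counts plus 0.5. DESeq2 1.42.0, limma 3.58.1 on log2 FPKM, and leaving out each library were alternatives. Simulated counts for this comparison (705 genes) gave 78% of 91 genes changed 2-fold and 98.2% of 109 changed 4-fold, and 4 of 505 unchanged genes, with edgeR. The named genes are the 4 members, every other gene of the interferon lists found in the table, and the 3 genes most like each member. Members and lists were chosen with earlier results of these data known. Pairs of replicates differed by more than sampling noise (median chi-square per gene 1.56 to 2.08, mean 10.9 to 48.1).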

Additional observations from a re-analysis of the deposited data

How the results depend on the processing

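Under all 13 alternatives IFI44 and CXCL10 kept their direction and an adjusted p under 0.05. IFI6 and OAS2 did so under 11. In those 11 settings between 682 and 746 listed genes passed, so passing there follows from the selection of the table. The exceptions for IFI6 and OAS2 were scalings over the listed genes alone. These moved the median log2 fold change of tested genes from 1.29 by -1.2 (TMM) and -1.16 (DESeq2), which takes lower genes further from 0. TMM gave log2 fold changes of -0.011 for IFI6 and -0.005 for OAS2 (edgeR adjusted p = 0.937 and 0.977), and DESeq2 size factors gave 0.023 and 0.033 (adjusted p = 0.921 and 0.922). For IFI44 and CXCL10 these scalings gave -3.96 and -4.22 (TMM) and -3.84 and -4.38 (DESeq2). The number of genes passing fell from 699 to 357 (167 higher, 190 lower) and 368 (181 higher, 187 lower). By construction such scaling centres a selected table. On log2(FPKM + 0.1) limma gave -1.74 for IFI44 and -1.66 for CXCL10, and on log2(FPKM + 1), -0.44 and -0.35, where OAS2 was at 0.59, since a pseudocount shrinks folds of low genes. Leaving out each library gave 1.14 to 1.28 for IFI6, 1.09 to 1.31 for OAS2, -3.59 to -1.89 for IFI44, -3.99 to -2.43 for CXCL10, and 697 to 708 genes passing. No pairing of libraries by replicate number was seen (correlations of deviations 0.03, 0.05 and -0.05, against -0.11 to 0.07 for unequal numbers). Such correlations cannot show that the libraries were unpaired. With the replicate number as a block 682 genes passed, and the log2 fold changes of 1.20, 1.20, -3.02 and -3.31 kept adjusted p-values of 9.88e-07, 3.87e-04, 0.0132 and 0.0126 (edgeR). Depth limits IFI44 and CXCL10, where 1 read is worth between 0.0149 and 0.0347 FPKM.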
